A study of Schizosaccharomyces pombe with 9 samples.

Results

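Transcript levels of 8 fission yeast genes that take sulphur from sulphate into cysteine and methionine were followed across 3 genotypes of Schizosaccharomyces pombe. The genes were matched by symbol, and the set was chosen with earlier results of these data known: sua1 (SPBC27.08c), cys2 (SPBC106.17c), met6 (SPBC56F2.11), cys11 (SPBC36.04), cys12 (SPAC3A12.17c), met9 (SPAC56F8.10), met11 (SPAC343.10) and met26 (SPAC9.09). Each symbol matched 1 row among the 5212 genes of the deposited tables, and all 8 were among the 5119 genes with enough counts to be tested. In the ASM294v3 reference, cys12, met9, met11 and met26 lie on chromosome I and sua1, cys2, met6 and cys11 on chromosome II.

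RNA of whole cells, enriched for mRNA with oligo(dT), was sequenced in 9 libraries. Wild type (WT) has 3 libraries. The strain called E112K here, whose genotype is htb1-E112K, carries a substitution in the histone H2B gene htb1 and has 3 libraries. The strain called E112K clr6-1, whose genotype is htb1-E112K clr6-1, adds an allele of clr6, the gene of a class I histone deacetylase, and has 3 libraries. No library carries clr6-1 without the H2B substitution, so no comparison here isolates clr6-1 in WT cells. The sources used here do not give the growth medium, its sulphur source or the temperature. Nothing in the labels says that the libraries of a group came from separate cultures, so the p-values measure the spread between libraries, which may be technical.

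Cells take up sulphate, activate it with ATP, reduce it through sulphite to sulphide, and then join the sulphide to an activated amino acid. With an O-acylated serine the product is cysteine, made by cysteine synthase, and with O-acetylhomoserine it is homocysteine, made by homocysteine synthase. Homocysteine becomes methionine when methionine synthase transfers a methyl group that methylenetetrahydrofolate reductase has prepared on folate. In fungi these genes are known to respond to the supply of sulphur compounds.

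Library totals ran from 16469576 to 20013351 counts, and libraries of the same group differed by more than counting error (pairwise chi-square divided by degrees of freedom, 2.95 to 9.68). The unit of level is CPM, the count scaled to a common library depth with TMM factors, and changes come from edgeR's quasi-likelihood test with Benjamini-Hochberg adjustment over all genes tested. A gene was called where its adjusted p was under 0.05. The WT level of htb1 was 1669 ± 43.0 CPM, that of E112K 5131 ± 127 CPM and that of E112K clr6-1 5435 ± 119 CPM (SD, n = 3). Both mutant strains differ from WT in the level of htb1 transcripts (3.07-fold and 3.26-fold) as well as in the substitution. No comparison with WT here tells these apart. The counts of ura4, a uracil synthesis gene used as a marker, were 0 in every WT and E112K library and 145 ± 1.93 CPM in E112K clr6-1. The labelled genotypes do not mention ura4. E112K clr6-1 thus differs from E112K in ura4 transcripts as well as in clr6-1, and no comparison here tells these apart. The words "with clr6-1 added" below name that strain and not an effect of clr6-1 alone.

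In E112K, 4 of the 8 genes fell against WT and 0 rose, where 76.5% of all genes tested were called. Those that fell were cys2, by 1.03 on the log2 scale, met26 by 0.39, met9 by 0.35 and sua1 by 0.14. By direction 38.9% of all genes were called lower and 37.6% higher, so the count of falls stands near the background. Neither edgeR at an unadjusted p under 0.05 nor DESeq2 placed any of the 8 higher (0 of 8 each). In E112K clr6-1 all 8 differed from WT. Transcripts of sua1, cys11, cys12 and cys2 rose, and those of met9, met11, met6 and met26 fell. Here 83.7% of all genes were called, 41.7% higher and 42% lower, and 4 of 8 in each direction is close to those shares. Between the mutant strains all 8 differed as well, 5 of them higher in E112K clr6-1 and 3 lower, where 78.8% of all genes were called (40.2% higher, 38.6% lower). Each pair of these comparisons shares the libraries of 1 group.

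Large changes were few. A change of at least 2-fold was found for 1 of the 8 genes in E112K (cys2; 9.28% of all genes), for 1 in E112K clr6-1 against WT (sua1; 13.3%) and for 2 between the mutant strains (sua1 and cys2; 7.31%). With a limit of 1.5-fold the counts were 1 (19.4% of all genes), 3 (sua1, cys11 and met9; 29.8%) and 3 (sua1, cys2 and cys11; 20.3%). Median absolute change over the 8 genes was 0.11 on the log2 scale in E112K, 0.46 in E112K clr6-1 against WT and 0.42 between the mutant strains, beside 0.27, 0.35 and 0.29 over all genes tested. Replicates lay close together: the coefficient of variation of the 8 genes ran from 1.29 to 6.28% in WT, from 1.09 to 5.43% in E112K and from 0.493 to 5.85% in E112K clr6-1, with cys12 the least variable of the 8 in each group.

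**Figure D1:**
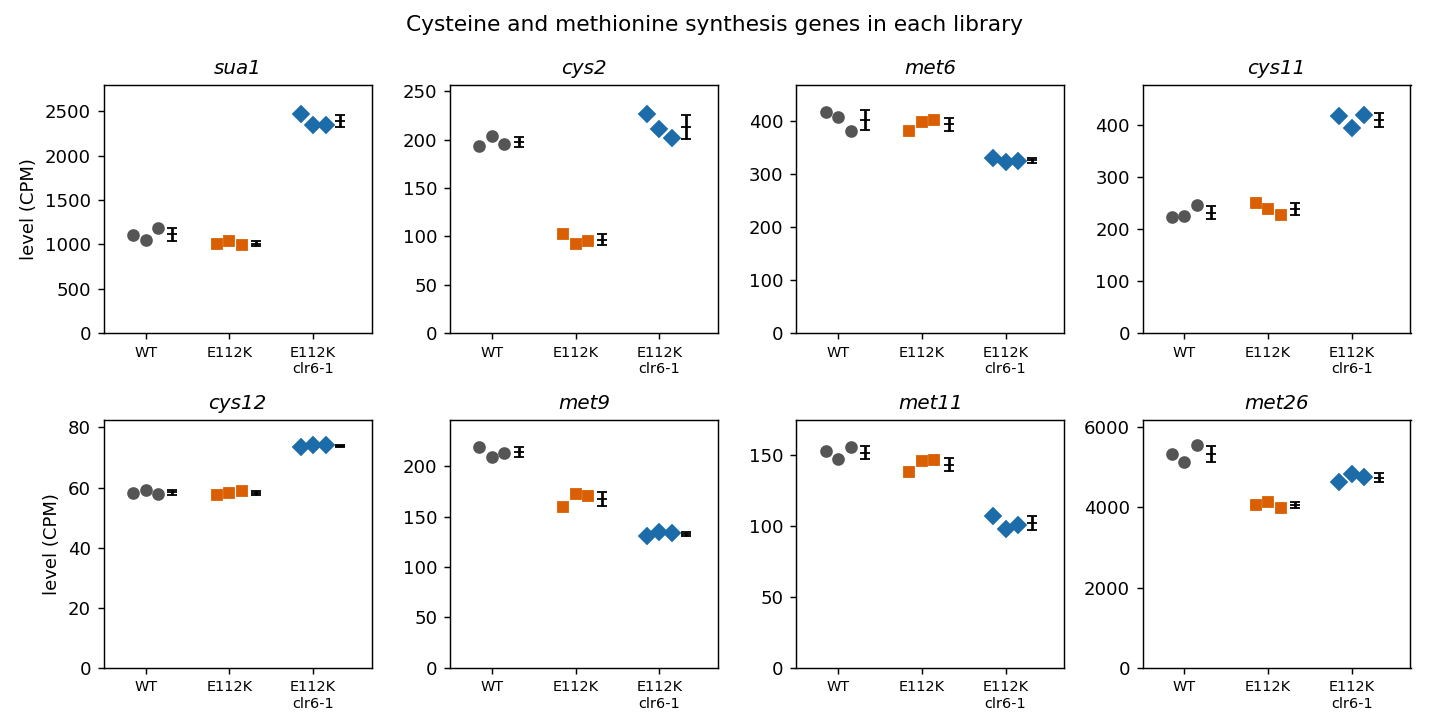
Level of each of the 8 genes in CPM (vertical axes, from 0) in every library of WT, E112K and E112K clr6-1; symbols are libraries, and the bars beside them are the mean and SD of 3. Levels of sua1 and cys11 are highest in E112K clr6-1, cys2 is lowest in E112K, and met9 falls from group to group.

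Sulphate activation was read from sua1, which encodes sulphate adenylyltransferase (ATP sulfurylase), the enzyme that attaches sulphate to ATP. Its transcripts stood at 1099, 1048 and 1186 CPM in the WT libraries, against 999, 1035 and 987 CPM in E112K. The E112K clr6-1 libraries held 2467, 2345 and 2346 CPM. The 3 groups did not overlap, and the E112K clr6-1 libraries were far above the other 6. In E112K sua1 fell by 0.14 on the log2 scale (SE 0.045, adjusted p = 0.0117), and by 0.09 without WT replicate 3 (adjusted p = 0.0428). It rose 2.15-fold in E112K clr6-1 against WT (SE 0.045 on the log2 scale, adjusted p = 1.01e-10) and was 2.37-fold above E112K (log2 1.24, SE 0.046, adjusted p = 7.51e-11). The rise over WT was larger in size than the change of 88.4% of all genes in that comparison.

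The activated amino acids are made by acyltransferases. The deposited annotation gives met6 as homoserine O-acetyltransferase, the step that commits homoserine to methionine, and cys2 as a predicted homoserine O-acetyltransferase, with serine O-acetyltransferase also among its functions. Transcripts of cys2 were at 193, 203 and 195 CPM in WT, against 102, 92.0 and 95.6 CPM in E112K. In E112K clr6-1 they were at 227, 211 and 202 CPM. Every E112K library was below the other 6, while WT and E112K clr6-1 overlapped. The fall in E112K was 1.03 on the log2 scale (SE 0.048, adjusted p = 5.44e-10), larger than the change of 91% of all genes, and E112K clr6-1 stood 2.21-fold above E112K (log2 1.14, SE 0.047, adjusted p = 2.34e-10). Against WT the E112K clr6-1 value was 1.08-fold higher (log2 0.11, SE 0.045, adjusted p = 0.0324). That call was lost without WT replicate 1 (adjusted p = 0.087), without WT replicate 3 (0.0656) and without E112K clr6-1 replicate 1 (0.155, with a log2 change of 0.07), and in the authors' deposited table the same comparison has an FDR of 0.47.

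The homoserine enzyme gene met6 took another course. The WT libraries held 416, 407 and 380 CPM, those of E112K 380, 399 and 401 CPM, and those of E112K clr6-1 331, 322 and 324 CPM. WT and E112K overlapped, and all E112K clr6-1 libraries were below both. The difference of E112K from WT was -0.03 on the log2 scale with a 95% confidence interval from -0.11 to 0.05 (adjusted p = 0.486). In E112K clr6-1 met6 fell by 0.30 against WT (SE 0.037, adjusted p = 5.99e-06) and by 0.27 against E112K (SE 0.037, adjusted p = 2e-05).

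Cysteine synthesis itself is covered by cys11, annotated as cysteine synthase, and cys12, annotated as a cysteine synthase-like protein. Transcripts of cys11 were at 224, 224 and 246 CPM in WT, against 251, 239 and 228 CPM in E112K and 417, 393 and 419 CPM with clr6-1 added. Those of cys12 were at 58.2, 59.2 and 57.7 CPM in WT, against 57.6, 58.3 and 58.8 CPM in E112K and 73.5, 74.2 and 74.0 CPM with clr6-1 added. For each gene WT and E112K overlapped and the E112K clr6-1 libraries lay above both. The difference of E112K from WT was 0.05 on the log2 scale for cys11 (95% confidence interval -0.05 to 0.15, adjusted p = 0.351) and 0.00 for cys12 (-0.09 to 0.08, adjusted p = 0.946). In E112K clr6-1 against WT, cys11 rose 1.77-fold (log2 0.82, SE 0.045, adjusted p = 1.73e-09) and cys12 rose 1.27-fold (log2 0.34, SE 0.038, adjusted p = 1.95e-06). Against E112K the rises were 1.71-fold for cys11 and 1.27-fold for cys12 (adjusted p = 5.57e-09 and 2.5e-06).

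The reference places cys11 next to clr6, the deacetylase gene whose clr6-1 allele one strain carries, on opposite strands and with overlapping transcript ends. The sources used here do not give the strand setting of the authors' counting, so reads in the overlap cannot be assigned to either gene. In the order WT, E112K and E112K clr6-1, transcripts of clr6 stood at 142 ± 7.08, 87.1 ± 1.77 and 119 ± 1.47 CPM, and those of cys11 at 231 ± 12.6, 239 ± 11.5 and 410 ± 14 CPM (SD, n = 3). The clr6 level was thus lowest in E112K, in which cys11 did not pass the test. A part of the linked allele in the rise of cys11 was not tested. Protein-coding genes also overlap cys2 (pre6, a proteasome subunit gene, by 47 bases) and met11 (msc1, by 80 bases), again on the opposite strand. Noncoding RNA genes on the opposite strand overlap both over longer stretches, cys2 by 1799 bases and met11 by 1695 bases. Reads there cannot be assigned either. Where cys2 fell by 1.03 in E112K, pre6 rose by 0.26 on the log2 scale, and its rise over WT in E112K clr6-1 was 0.08. For msc1 the changes against WT were 0.46 in E112K and -0.08 in E112K clr6-1 (adjusted p = 1.19e-06 and 0.14). No overlapping gene is annotated for cys12, and sua1, met6, met9 and met26 overlap only noncoding RNA genes, which were not analysed here. Those on the opposite strand overlap met6 by 1969 bases, sua1 by 603, met9 by up to 748 each and met26 by up to 434 each. Another overlaps met26 by 52 bases on the same strand. Reads in these stretches cannot be assigned either.

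Methyl groups for methionine come from methylenetetrahydrofolate reductase, encoded by met9 and met11. Transcripts of met9 stood at 220, 209 and 213 CPM in WT, against 159, 172 and 171 CPM in E112K and 131, 135 and 134 CPM with clr6-1 added. Those of met11 stood at 153, 147 and 156 CPM in WT, against 138, 146 and 147 CPM in E112K and 107, 98.2 and 101 CPM with clr6-1 added. None of the 3 groups overlapped for met9, nor for met11, where the highest E112K library was just below the lowest of WT. In E112K met9 fell by 0.35 on the log2 scale (SE 0.034, adjusted p = 6.84e-07), whereas met11 differed by -0.08 and did not pass the test (95% confidence interval -0.17 to 0.00, adjusted p = 0.0685). Without E112K clr6-1 replicate 1, whose removal changes only the shared estimate of the spread and the normalization, met11 passed with the same log2 change (adjusted p = 0.044). In E112K clr6-1 both fell against WT, met9 by 0.69 (SE 0.034, adjusted p = 6.99e-10) and met11 by 0.57 (SE 0.040, adjusted p = 1.86e-08). Both also fell from E112K to E112K clr6-1, met9 by 0.33 and met11 by 0.49 (adjusted p = 1.5e-06 and 1.37e-07).

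Methionine synthase, the homocysteine methyltransferase encoded by met26, was the most abundant of the 8 transcripts. The WT libraries held 5324, 5130 and 5550 CPM, the E112K libraries 4067, 4147 and 3988 CPM, and the E112K clr6-1 libraries 4634, 4845 and 4759 CPM. WT was highest, E112K lowest and E112K clr6-1 between them, with no overlap. The fall against WT was 0.39 on the log2 scale in E112K (SE 0.041, adjusted p = 1.52e-06) and 0.17 in E112K clr6-1 (SE 0.041, adjusted p = 0.00181), and E112K clr6-1 was 1.17-fold above E112K (adjusted p = 0.000239). Among the 8 genes, met26 supplied 69.1 to 69.5% of the counts of WT libraries, against 65.6 to 66.1% for E112K and 55.3 to 57.5% for E112K clr6-1. Together the 8 genes took 0.761 to 0.797% of a WT library, against 0.611 to 0.621% for E112K and 0.825 to 0.838% for E112K clr6-1.

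**Figure D2:**
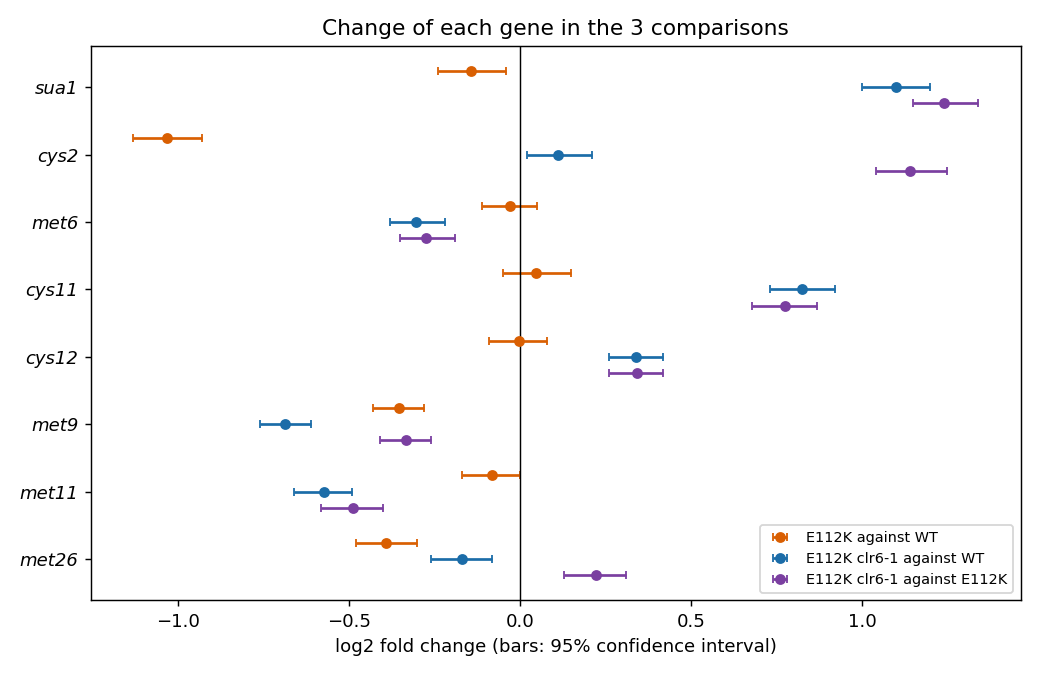
Log2 fold change (horizontal axis) of each of the 8 genes in the 3 comparisons, with the 95% confidence interval derived from edgeR's quasi-likelihood test as bars. In E112K against WT cys2 stands apart at -1.03; in E112K clr6-1 against WT sua1 lies farthest to the right, cys11 at 0.82, and met9 and met11 at -0.69 and -0.57.

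Groups did not overlap for 5 of the 8 genes between E112K and WT (78% of all genes), for 7 between E112K clr6-1 and WT (84.8%) and for all 8 between the mutant strains (80.5%). These counts are 62.5%, 87.5% and 100% of the 8 genes, and so few genes do not set them apart from the shares over all genes. An FDR under 0.05 is given by the authors' deposited table for 4 of the 8 genes in E112K and for 7 in E112K clr6-1 against WT, all of them called here in the same direction. The additional call here was cys2 in E112K clr6-1.

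Levels of different genes were compared per transcript length, with the authors' FPKM. In WT the order was met26 at 1936 ± 51.2 FPKM, sua1 at 670 ± 33.2, cys11 at 166 ± 6.98, met6 at 161 ± 9.34, met9 at 98.8 ± 2.48, cys2 at 96.3 ± 3.57, met11 at 68.2 ± 1.13 and cys12 at 39.3 ± 1.00 FPKM (SD, n = 3). Libraries of cys11 and met6 overlapped, as did those of met9 and cys2, and the other neighbours did not. In E112K cys2 moved to the seventh place at 46.4 ± 2.66 FPKM, below met11 at 63.4 ± 2.26 FPKM, and no neighbours overlapped. In E112K clr6-1 sua1, at 1410 ± 52.2 FPKM, came near met26 at 1686 ± 26.8 FPKM, while cys11 reached 288 ± 10.9 FPKM against 128 ± 2.84 FPKM for met6. The lowest places were taken there by cys12 at 48.6 ± 0.139 and met11 at 44.9 ± 2.42 FPKM, again with no overlap between neighbours.

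**Figure D3:**
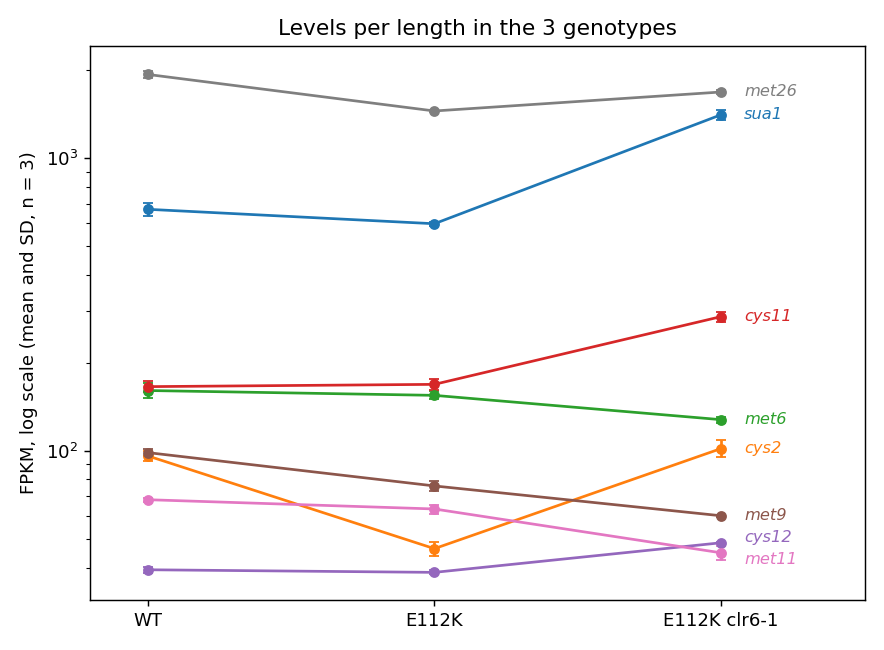
Mean FPKM of the 8 genes (vertical axis, log scale; bars are the SD of 3 libraries) in WT, E112K and E112K clr6-1, joined by lines per gene. The line of cys2 dips to 46.4 FPKM in E112K, and sua1 climbs from 670 FPKM in WT to 1410 FPKM in E112K clr6-1.

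Pairs of genes with like annotation were compared within each library, where depth cancels. The ratio of cys11 to cys12 in FPKM was 4.10, 4.05 and 4.55 in WT, 4.65, 4.38 and 4.13 in E112K, and between 5.66 and 6.05 in E112K clr6-1. Ratios of WT and E112K overlapped and those of E112K clr6-1 were higher, by 0.48 over WT and 0.43 over E112K on the log2 scale.

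The ratio of cys2 to met6 was 0.565, 0.607 and 0.625 in WT, 0.328, 0.281 and 0.290 in E112K, and 0.833, 0.799 and 0.758 in E112K clr6-1. No groups overlapped. The ratio in E112K was 0.5 times that in WT, and E112K clr6-1 stood above WT by 0.41 and above E112K by 1.41 on the log2 scale. The ratio of met9 to met11 went from 1.45 ± 0.0377 in WT to 1.20 ± 0.0141 in E112K, a difference of -0.27 on the log2 scale, and was 1.34 ± 0.0814 in E112K clr6-1 (SD, n = 3), which overlapped WT. In 7 of the 9 comparisons of a pair the groups did not overlap, and each of these had p = 0.1 in the exact two-sided permutation test, the smallest that 3 against 3 libraries allow (adjusted p = 0.129 over 9 tests). The others were cys11 to cys12 in E112K against WT (exact permutation p = 0.5) and met9 to met11 in E112K clr6-1 against WT (exact permutation p = 0.2).

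**Figure D4:**
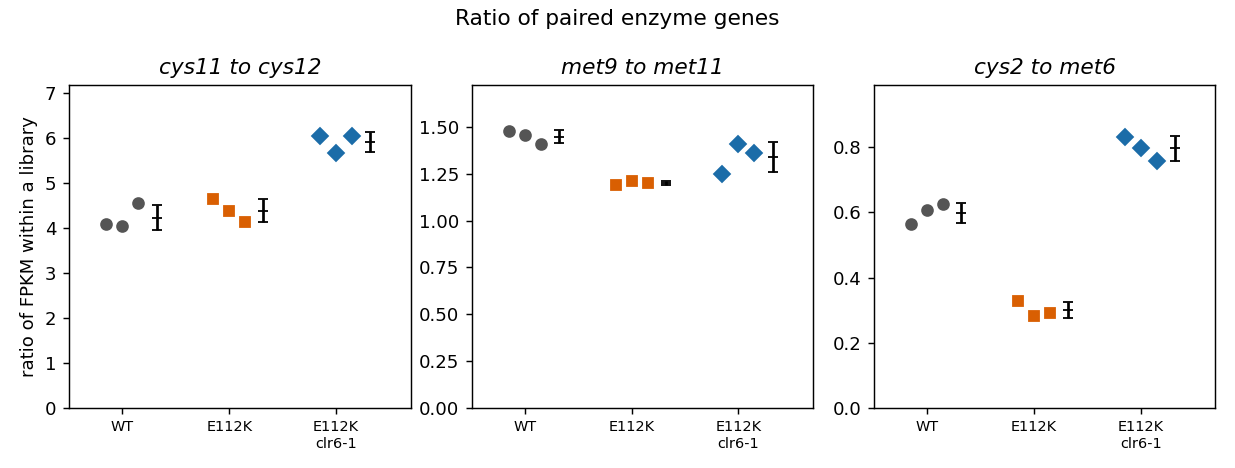
Ratio of FPKM of cys11 to cys12, met9 to met11 and cys2 to met6 (vertical axes, from 0) in every library of the 3 groups; the bars are the mean and SD of 3. The ratio of cys2 to met6 is lowest in E112K (0.281 to 0.328) and highest in E112K clr6-1 (0.758 to 0.833).

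The rest of the pathway was read from a list of 31 further genes, found from 34 entries (1 symbol, met7, matched no row, and other entries named a gene already listed). In E112K against WT 10 of the 31 rose and 18 fell, where 37.6% of all genes were called higher and 38.9% lower. Set against WT, E112K clr6-1 had 8 that rose and 19 that fell (41.7% and 42% of all genes), and between the mutant strains 12 were higher and 13 lower (40.2% and 38.6%). The median log2 change of the list was -0.23 in E112K and -0.28 in E112K clr6-1 against WT, beside -0.01 and 0.00 over all genes. One listed gene, SPAC644.09, is annotated as a predicted alanine racemase and not as a sulphur enzyme. It fell by 0.56 (log2) in E112K and by 1.26 in E112K clr6-1, against WT, and was kept in the counts.

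Of 8 genes of sulphate uptake and reduction 3 rose and 5 fell in E112K (37.6% and 38.9% of all genes), and 2 rose and 4 fell in E112K clr6-1 against WT (41.7% and 42%). So few genes per step, here and in the steps that follow, do not set a step apart from all genes. Transcripts of SPAC869.05c, a predicted sulphate transporter gene, stood at 66.2, 60.8 and 67.0 CPM in WT, against 209, 189 and 185 CPM in E112K and 863, 711 and 721 CPM with clr6-1 added. The groups rose in that order without overlap, 3-fold in E112K and 11.83-fold in E112K clr6-1 over WT (adjusted p = 9.82e-10 and 3.15e-13). The next enzyme after sua1, the adenylyl-sulphate kinase encoded by met14, went the other way and fell by 0.74 in E112K and 0.75 in E112K clr6-1 against WT on the log2 scale (adjusted p = 5.85e-10 and 3.07e-10). Between the mutant strains met14 differed by -0.01 (95% confidence interval -0.08 to 0.07, adjusted p = 0.826), although sua1 was 2.37-fold apart. The met14 gene overlaps another protein-coding gene, SPAC1782.12c, on the opposite strand by 990 bases. With the counting strand not given, reads in that stretch cannot be assigned to either gene.

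Homocysteine is made from O-acetylhomoserine and sulphide by homocysteine synthase, encoded by met17. Its transcripts were at 210, 203 and 210 CPM in WT, against 65.9, 56.8 and 56.1 CPM in E112K and 246, 203 and 192 CPM with clr6-1 added. The E112K libraries were far below the other 6, which overlapped one another. It fell in E112K by 1.80 on the log2 scale (SE 0.085, adjusted p = 6.53e-10) and was higher by 1.85 in E112K clr6-1 than in E112K (adjusted p = 5.95e-10). Against WT the E112K clr6-1 value differed by 0.04 (95% confidence interval -0.12 to 0.21, adjusted p = 0.594). This is the order of groups that cys2 showed, lowest in E112K and near WT in E112K clr6-1. The cystathionine beta-lyase gene SPCC11E10.01, whose enzyme frees homocysteine from cystathionine, fell by 0.52 in E112K and 0.85 in E112K clr6-1 against WT (adjusted p = 4.17e-09 and 2.29e-11).

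The 3 genes of homoserine supply fell in E112K, where 38.9% of all genes fell, and in E112K clr6-1 against WT, where 42% did. Aspartate kinase, the first step of that branch, is encoded by SPBC19F5.04, which stood at 599 ± 17.6 CPM in WT, against 464 ± 5.43 CPM in E112K and 303 ± 1.61 CPM with clr6-1 added (SD, n = 3), log2 changes from WT of -0.37 and -0.98. Its adjusted p was 1.41e-07 in E112K and 6.65e-12 in E112K clr6-1.

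Among 6 genes listed under the methyl cycle and one-carbon supply 2 rose and 3 fell in E112K (37.6% and 38.9% of all genes), and 2 rose and 4 fell in E112K clr6-1 against WT (41.7% and 42%). The 2 that rose in E112K are annotated as methionine sulphoxide reductase genes and not as genes of that cycle, and were kept in the counts. The S-adenosylmethionine synthetase gene sam1, which uses the methionine made by met26, fell by 0.23 on the log2 scale in E112K and rose 1.42-fold in E112K clr6-1, from 1475 ± 13.7 CPM in WT to 1256 ± 49.8 and 2093 ± 26.4 CPM (SD, n = 3; adjusted p = 5.15e-05 and 2e-08 by edgeR). The serine hydroxymethyltransferase gene shm1, which loads folate with the one-carbon unit that met9 and met11 reduce, fell in both mutant strains, by 0.41 and 1.01 (log2 scale, adjusted p = 2e-07 and 1.66e-11). The methionine sulphoxide reductase gene mxr2 rose 1.26-fold in E112K and fell by 0.30 in E112K clr6-1 (adjusted p = 3.9e-05 and 9.24e-05).

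In methionine salvage, which recovers methionine from methylthioadenosine, 1 of 4 genes rose and 3 fell in E112K (37.6% and 38.9% of all genes), and 2 rose and 2 fell in E112K clr6-1 (41.7% and 42%). Among those that fell in each strain was SPAC644.09, which is not annotated as a sulphur enzyme. The phosphorylase gene SPAC16C9.02c fell by log2 changes of -0.79 and -0.93 (adjusted p = 6.75e-11 and 9.78e-12). The acireductone dioxygenase family gene SPBC887.01, which overlaps cnp1 on the same strand, fell by 0.16 in E112K and rose 1.39-fold in E112K clr6-1 against WT (adjusted p = 0.019 and 3.41e-06). Its fall in E112K was lost without WT replicate 2 (adjusted p = 0.0686) and without E112K replicate 3 (0.0738).

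Of 6 genes that use cysteine for glutathione or handle sulphide 4 rose and 2 fell in E112K (37.6% and 38.9% of all genes), and 1 rose and 4 fell in E112K clr6-1 against WT (41.7% and 42%). The sulphide-quinone oxidoreductase gene hmt2, whose enzyme oxidises sulphide, rose 1.36-fold in E112K and 1.96-fold in E112K clr6-1 (adjusted p = 6.72e-05 and 2.66e-08). The phytochelatin synthase gene pcs2 fell in both strains, with log2 changes of -0.57 and -0.60 (adjusted p = 7.5e-08 and 2.93e-08). The gamma-glutamyltranspeptidase gene ggt2 had 2, 94 and 8 counts in the WT libraries, 759, 759 and 986 in E112K and 0 in every E112K clr6-1 library. One WT library thus carried most of the WT counts. The log2 change of E112K over WT was 4.66, and 7.45 without WT replicate 2. In E112K clr6-1 against WT, ggt2 is among the 4 that fell, with a wide error (log2 -8.09, SE 2.635, adjusted p = 0.0146 by edgeR). That change was -5.30 without WT replicate 2. Against a floor of 3 counts over the E112K clr6-1 group, which covers counting error only, ggt2 was at least 860-fold lower there than in E112K. It overlaps snd2, on the opposite strand. Among the other pathway genes named, SPBC19F5.04, SPCC11E10.01 and mxr2 overlap a protein-coding gene on the opposite strand and hmt2 overlaps rpc25 on the same strand.

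Of the regulators listed, zip1 encodes a bZIP transcription factor of sulphur metabolism and the cadmium response. Transcripts of zip1 were at 450 ± 5.24 CPM in WT, against 460 ± 10.4 CPM in E112K and 268 ± 5.80 CPM with clr6-1 added (SD, n = 3). They did not pass the test in E112K (log2 0.03, 95% confidence interval -0.03 to 0.10, adjusted p = 0.334) and fell by 0.75 in E112K clr6-1 against WT (SE 0.030, adjusted p = 8.81e-11). The zip1 gene overlaps rec10 on the opposite strand.

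**Figure D5:**
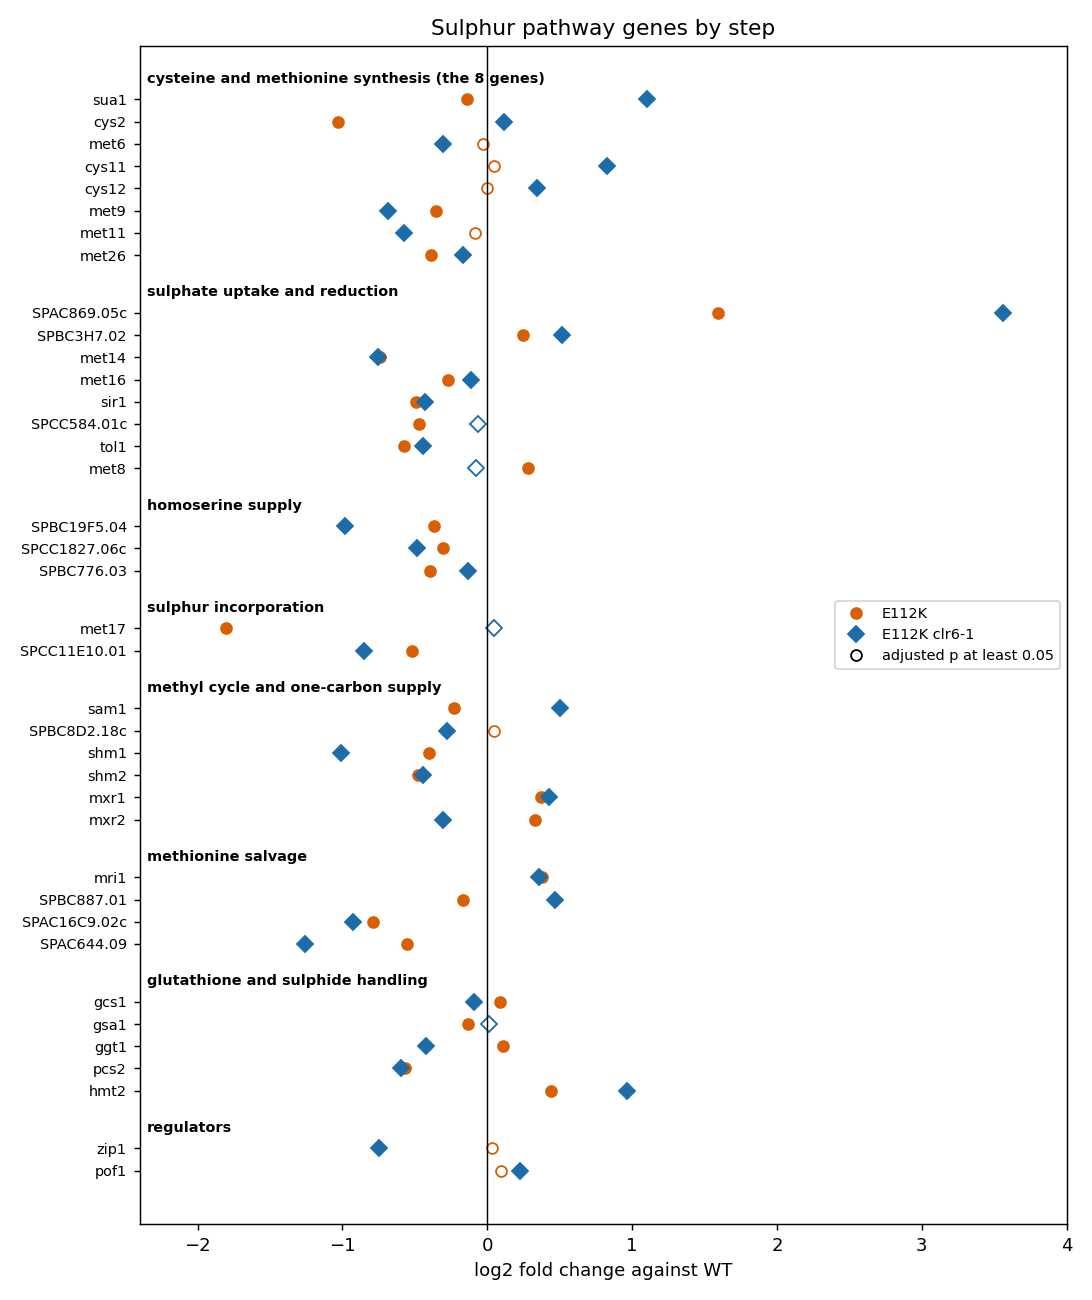
Log2 fold change against WT (horizontal axis) of the 8 genes and 30 of the 31 other pathway genes, by step, in E112K (circles) and E112K clr6-1 (diamonds); open symbols did not pass edgeR's test, and ggt2, at 0 counts in E112K clr6-1, is left out. The sulphate transporter gene SPAC869.05c lies farthest to the right in both strains and met17 farthest to the left in E112K.

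For the 4 genes among the 8 that changed at least 1.5-fold, the genes most alike in pattern were sought among all others tested, by the root mean square distance between log2 CPM centred on each gene's mean over the 9 libraries. Nearest to sua1 were the phosphofructokinase gene pfk1 (distance 0.057) and the disulphide isomerase gene pdi4 (0.069), and 6 genes lay within 0.1. Nearest to cys2 were laf2, which encodes a Clr6-associated factor (0.086), and the karyogamy gene tht2 (0.092), the only 2 within 0.1. For cys11 they were the phosphoglycerate mutase gene gpm1 (0.037) and cut23, which encodes a subunit of the anaphase-promoting complex (0.040), among 47 within 0.1. For met9 they were arx1 (0.035) and elf1 (0.037), among 169. The 9 points of each distance share their libraries and fall into 3 groups, so it mostly describes the group means.

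The core motifs known from the sulphur and amino acid genes of Saccharomyces cerevisiae, CACGTG (Cbf1) and TGACTC (Gcn4), were searched on both strands in the 300 bases before the annotated transcript start in the ASM294v3 reference. Neither was present in the window of any of the 8 genes. Over 5145 genes with a window, CACGTG was present in 1.54% and TGACTC in 6.61%. At such low shares the absence from 8 genes does not set them apart from all genes.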

How the data were processed

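Counts per gene and library are whole numbers deposited by the authors, per the file headers; if made by RSEM they are rounded estimates. FPKM per gene and library, log2 fold changes, and p-value and FDR columns are also the authors' own, per the file headers. Per the submitters' processing notes, RSEM, StringTie, HISAT2, Bowtie2, fastp and DESeq2 were used; no version, build, annotation or counting strand is given in the sources used here. The deposited tables for the mutant strains were joined by gene identifier.

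One fit over the 9 libraries used edgeR 4.0.16 in R 4.3.3 (TMM, filterByExpr, quasi-likelihood test, adjusted p under 0.05 over 5119 genes; biological coefficient of variation 0.0389). Intervals are 95%. Log2 CPM used a prior count of 2. DESeq2 1.42.0 was an alternative, with another scaling, no filter, a replicate block, 6-library fits and fits without each library. The members and lists were chosen with earlier results of these data known. Named were the 8 genes, each listed pathway gene called with at least a 1.5-fold change in a comparison (15 of 31), and the 2 nearest in pattern. The ASM294v3 reference served for names, overlaps and upstream windows only, since the authors' build is unknown. Protein sequences were not used here.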

Additional observations from a re-analysis of the deposited data

How the results depend on the processing

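Of 336 recomputed log2 fold changes of the 8 genes, 332 stayed on the same side of the threshold. The call was lost in 3 (cys2 in E112K clr6-1 against WT) and gained in 1 (met11 in E112K). Where either fit called the gene, 0 changed sign. Sign changes without a call in either fit were not counted, as for cys12 in E112K (-0.003, and 0.01 with DESeq2 size factors). By the same rule 624 of 626 were kept for the 15 named pathway genes. The count of the 8 genes called stayed at 4, 8 and 8 in the 3 comparisons under DESeq2, DESeq2 size factors, no filter, the replicate block and the fits to 6 libraries. Without 1 library each, it ranged from 4 to 5, 7 to 8 and 8 to 8, and the count of 2-fold changes in E112K from 0 to 1, since cys2 falls just short of that limit without E112K replicate 2 (count of 0). With the replicate block the called pathway genes numbered 28, 27 and 25, as without it, and 3876, 4267 and 4015 of all genes were called (3914, 4286 and 4035 without it). Under the DESeq2 Wald test the called pathway genes numbered 27 in E112K and 25 in E112K clr6-1 against WT. The fit to 6 libraries called 26 in E112K clr6-1 against WT. Without 1 library each, the 3 counts ranged from 26 to 29, 25 to 27 and 24 to 26. Same-numbered libraries of different groups deviated together in 2 of 9 pairs (correlations over 0.1, range -0.17 to 0.18). Such correlations do not settle whether the numbers pair the libraries, which the labels do not say. Without SPAC644.09, an alternative added after seeing the data, 27, 26 and 24 pathway genes were called. Differences of the pair ratios were the same in FPKM and CPM, which is no check, since gene length cancels in such a difference. DESeq2 gave no adjusted p for ggt2. Alignment of the paired proteins was not run. With 3 libraries a group, no permutation test here could pass 0.05.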

Other observations

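Further genes of sulphur transport and transsulphuration were picked by their descriptions after the values had been seen, 8 in all, and each was tested in the same edgeR fit. The predicted cysteine transporter gene SPBPB10D8.01 stood at 77.6 ± 3.27 CPM in WT, against 97.0 ± 8.03 CPM in E112K and 216 ± 16.2 CPM with clr6-1 added (SD, n = 3), above WT by 0.32 and 1.48 on the log2 scale (adjusted p = 0.000604 and 1.35e-10). The other cysteine transporter gene, SPCPB1C11.03, fell by 0.22 on the log2 scale in E112K and rose 1.33-fold in E112K clr6-1 (adjusted p = 0.0468 and 0.000858). Of the predicted sulphate transporter genes outside the list, SPAC24H6.11c fell by 0.43 in E112K and rose 1.21-fold in E112K clr6-1 (adjusted p = 2.04e-07 and 8.82e-06), and SPCC320.05 rose 1.11-fold and 1.23-fold (adjusted p = 0.00965 and 4.88e-05).

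A second gene annotated as homocysteine methyltransferase, SPAC57A7.07c, fell by 0.64 on the log2 scale in E112K and by 0.45 in E112K clr6-1 against WT (adjusted p = 3.72e-07 and 7.74e-06), where met26 fell by 0.39 and 0.17. The predicted cystathionine gamma-synthase gene SPBC15D4.09c rose 1.38-fold and 1.32-fold (adjusted p = 2.94e-08 and 7.74e-08), and the predicted transsulphuration enzyme gene SPAC23A1.14c rose 1.24-fold and 1.46-fold (adjusted p = 6.78e-05 and 1.77e-07). The last of the 8, SPAPB17E12.12c, a predicted transporter gene for adenylylated sulphate, rose 1.18-fold in E112K (adjusted p = 0.022) and differed by -0.03 in E112K clr6-1 (adjusted p = 0.78).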
